A study of Mus musculus with 23 samples.

Results

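Toll-like receptors (TLRs), their adaptor Myd88 and the co-receptor Cd14 were followed through the differentiation of mouse embryonic stem (ES) cells to blood, with and without induction of RUNX1-ETO. This fusion of the transcription factor RUNX1 with the repressor protein ETO arises by a chromosomal translocation in acute myeloid leukaemia. The members were Tlr1, Tlr2, Tlr3, Tlr4, Tlr6, Tlr7, Tlr9, Tlr13, Myd88 and Cd14, 10 of the 20145 genes with a probe named through its RefSeq accession, and each was read by its probe with the highest mean. Of these, 9 reached a log2 intensity of 6.5 on at least 1 array and were tested among 15202 genes. Tlr6 did not reach it and is described by its values.

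The cells came from an A2lox ES line (strain C57BL/6 per the labels) that carries HA-tagged human RUNX1-ETO under a promoter responsive to tetracycline, in a background with wild-type Runx1. Cells sorted for Flk1 were placed in blast culture, doxycycline (Dox) was added at 0.1 μg per ml on day 1, and on day 2 the cultures were sorted into haemogenic endothelium (HE, KIT+Tie2+CD41−), HE2 (KIT+Tie2+CD41+) and progenitors (KIT+Tie2−CD41+). Myeloid progenitors were grown from floating cells of day 2 in medium with SCF, Flt3 ligand and thrombopoietin. They received Dox on day 2, overnight per the study, and were harvested on day 3, so that their time with Dox may differ from that of the early stages. Each of the 4 stages was measured uninduced and induced on Agilent 1-colour arrays, with 3 arrays per group and 2 in each progenitor group. All groups carry the transgene, including those without Dox, and Dox-treated cells without it were not analysed here. Targeted colonies were picked one by one, and how many of them gave the arrays is not given in the sources used here. The arrays are labelled as biological replicates without naming separate cultures, so that P values measure the spread between arrays, which may be partly technical.

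TLRs are membrane receptors that recognise molecules of microbes. TLR2 pairs with TLR1 or TLR6 at the cell surface and binds lipopeptides, and TLR4 with its partner LY96 binds lipopolysaccharide that CD14 hands over. TLR3, TLR7, TLR9 and TLR13 sense nucleic acids in endosomes. Except for TLR3, these receptors signal through the adaptor MyD88 to IRAK kinases, NF-κB and interferon regulatory factors. CD14 is a surface marker of monocytes and macrophages, cells that are rich in TLRs.

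Promoters of 7 of the 10 members were found in a RefSeq table of GRCm38.p6, with 9 transcription starts between them. In the 250 bases before each start, 3 motifs were searched on both strands, namely the RUNX motifs TGTGGT and TGCGGT and the ETS motif GAGGAA, of the kind that PU.1 binds. TGTGGT was found in 1 of the 9 windows (Tlr6, 132 bases before the start) and in 14.0% of all 32851 windows, and TGCGGT in 0 of 9 and 5.1%. GAGGAA was found in 3 of 9 (Tlr13, Tlr9 and 1 of 2 starts of Tlr1) and in 23.3% of all windows, and no motif overlapped another. The windows below belong to Tlr2 and Tlr13, whose levels were called as changed with Dox, and to Tlr9, which varied least of the members. They lie at chr3:83841609-83841858 (minus strand), chrX:106143025-106143274 (plus strand) and chr9:106222348-106222597 (plus strand), and capitals mark GAGGAA, 83 bases before the start of Tlr13 and 112 before that of Tlr9.
Tlr2: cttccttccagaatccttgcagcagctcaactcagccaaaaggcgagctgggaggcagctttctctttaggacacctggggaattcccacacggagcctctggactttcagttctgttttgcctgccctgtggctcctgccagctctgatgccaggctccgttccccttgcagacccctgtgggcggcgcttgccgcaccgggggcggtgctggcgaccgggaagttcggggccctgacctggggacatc
Tlr13: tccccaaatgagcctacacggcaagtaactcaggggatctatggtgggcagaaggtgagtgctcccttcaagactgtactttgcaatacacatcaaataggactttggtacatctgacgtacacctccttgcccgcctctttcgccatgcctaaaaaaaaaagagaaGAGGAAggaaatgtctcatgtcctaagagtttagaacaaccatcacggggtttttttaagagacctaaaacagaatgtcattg
Tlr9: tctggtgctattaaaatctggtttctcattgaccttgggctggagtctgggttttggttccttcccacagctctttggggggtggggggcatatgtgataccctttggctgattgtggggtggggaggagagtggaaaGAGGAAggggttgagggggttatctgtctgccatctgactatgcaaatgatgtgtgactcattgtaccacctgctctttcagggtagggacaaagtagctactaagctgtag

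Levels are given as log2 intensity after background correction and quantile normalization, and a difference of 1 on this scale is 2-fold. Since probes differ in how well they bind, levels were compared between arrays and not between genes. A gene counted as called where a limma fit over 22 arrays gave an unadjusted P no higher than 0.001 and a change of 2-fold or more. P values printed here are, unless stated, adjusted over all 15202 genes, so that a gene may have a low adjusted P and still miss this threshold. Between 48.8 and 78.4% of the spots of an array were well above background. The arrays lay on 3 slides, and slide 3, scanned on another day, held all 6 myeloid progenitor arrays, induced progenitor array 2 and an additional uninduced progenitor array that was normalized with the rest and not fitted. Runx1t1, the mouse gene for ETO, was read 1.24 ± 0.34 (SE) higher with Dox in HE, which was not called (adjusted P = 0.0155), and was called as higher by 2.08, 3.96 and 2.06 in the later stages in turn. Itga2b (CD41) was well above background on all HE arrays although HE was sorted as CD41−, from 9.495 to 11.46 uninduced and at 7.49 ± 0.55 (SD) induced. In HE2, sorted as CD41+, Itga2b stood at 11.81 ± 0.66 uninduced and 9.35 ± 1.52 induced, with groups apart (−2.46, not called). Induced HE2 array 3 was at 7.73, below all uninduced HE arrays. Tek (Tie2) stood at 8.67 ± 0.06 in uninduced progenitors, sorted as Tie2−, against 11.95 ± 1.63 in uninduced HE. In induced progenitors, also sorted as Tie2−, it stood at 11.10 ± 0.26, above the mean of 10.67 in uninduced HE2, which was sorted as Tie2+. Kit had group means between 12.70 and 13.71 in HE, HE2 and progenitors, all sorted as KIT+. It was called as lower by 2.61 ± 0.34 in myeloid progenitors than in progenitors without Dox. With Dox in myeloid progenitors Kit was 1.02 ± 0.30 higher, which was not called (adjusted P = 0.0299).

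**Figure D1:**
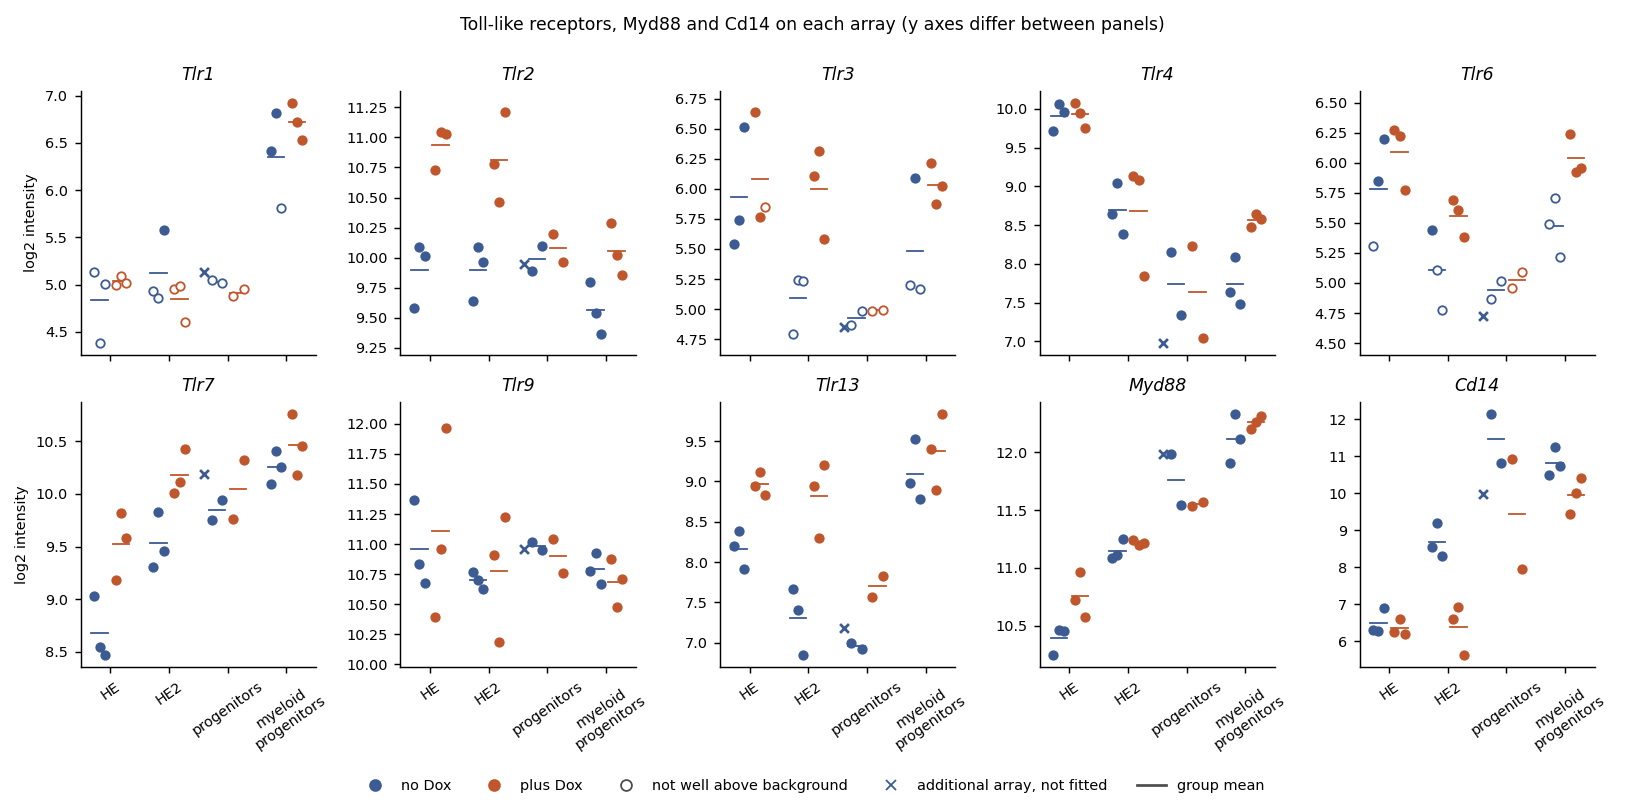
Log2 intensity (y axis, scaled per gene) of the 10 members on each array, by stage (x axis) and Dox (colour), with group means as bars, open points where the probe was not well above background, and crosses for the additional array. Cd14 spans 6.35 in induced HE to 11.46 in uninduced progenitors, the widest range of group means, whereas Tlr9 spans 10.69 to 11.11.

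Tlr2, the shared partner of the lipopeptide receptors, was higher with Dox in HE and was the only member called there by the probes used. It was read at 9.59, 10.09 and 10.01 on the uninduced HE arrays and at 10.73, 11.04 and 11.03 on the induced ones, so that the groups did not overlap. The change was 1.04 ± 0.21 (SE) or 2.05-fold (adjusted P = 0.00183). The 2-fold threshold was barely passed. With the slide as a block or scaling to the 75th percentile the change was 0.98, and without uninduced HE array 1 or induced HE array 2 or 3 it was 0.88, 0.98 and 0.99, none of which was called. Among arrays of 1 slide it was 0.89 on slide 1 and 1.02 on slide 2.

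In HE2, Tlr2 was read at 9.64, 10.09 and 9.97 without Dox and at 10.78, 10.46 and 11.21 with it. The groups were again apart, by 0.92 ± 0.21 (adjusted P = 0.00461), under 2-fold and not called. In progenitors the difference was 0.090 with a 95% interval from −0.44 to 0.63. In myeloid progenitors it was 0.49 (0.049 to 0.92), with 9.37 to 9.80 uninduced and 9.85 to 10.29 induced. The response to Dox in progenitors minus that in HE2 was −0.83 ± 0.33 (adjusted P = 0.498), so that a difference between these stages was not called. Without Dox, the group means of Tlr2 were 9.90, 9.90, 9.99 and 9.57 in order of the stages, and no step was called. Its probe stands at 10 spots per array, whose SD within an array had a median of 0.11 and a maximum of 0.20.

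The partners of TLR2 were dim. No array of uninduced or induced HE, induced HE2 or either progenitor group had Tlr1 well above background, and in uninduced HE2 1 of 3 did. In myeloid progenitors it was read at 6.42, 6.81 and 5.81 uninduced, the last not well above background, and at 6.92, 6.71 and 6.53 induced. Relative to progenitors this was at least 2.49-fold higher without Dox (adjusted P = 0.0015) and at least 2.70-fold higher with Dox (adjusted P = 1.68e-04), both called. With an offset of 50, which compresses dim signals, the change without Dox was 0.81 and with scaling to the 75th percentile 1.24, neither called, and with the slide as a block it was 1.33 (adjusted P = 0.201). It also lost its call without uninduced myeloid array 2 (1.08) or either uninduced progenitor array (1.33 and 1.30). The difference with Dox was 0.38 in myeloid progenitors, with an interval from −0.14 to 0.90.

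Tlr6, which lies beside Tlr1 in the genome, stayed under the minimum for testing, between 4.73 and 6.27 on all 23 arrays. It was not well above background in either progenitor group or in uninduced myeloid progenitors, and was so on all 3 arrays of induced HE, HE2 and myeloid progenitors. Its group means in HE were 5.79 without and 6.09 with Dox, and in HE2 5.11 and 5.56.

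Tlr4, the receptor for lipopolysaccharide, had its highest levels in HE, and none of its changes was called. The uninduced arrays were at 9.72, 10.06 and 9.96 in HE, at 8.64, 9.05 and 8.38 in HE2 and at 8.15 and 7.33 in progenitors. From HE to HE2 the change without Dox was −1.22 ± 0.33, and with Dox −1.24 ± 0.33. Both exceeded 2-fold with groups apart but missed the P threshold (adjusted P = 0.0231 and 0.034), while with the slide as a block both were called. On induced HE2 array 3, the 2 spots of the Tlr4 probe differed by an SD of 2.05, against a median SD of 0.15. Without that array the change with Dox was −0.82 and not called, and the next step with Dox, from HE2 to progenitors, was −1.48 and called against −1.06 (adjusted P = 0.0684) with it. The differences with Dox were 0.016 in HE (interval −0.68 to 0.72) and −0.0012 in HE2 (−0.70 to 0.70).

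In myeloid progenitors Tlr4 was read at 7.63, 8.09 and 7.48 without Dox and at 8.47, 8.64 and 8.57 with it. The groups did not overlap, and the difference of 0.83 ± 0.33 was not called (adjusted P = 0.115). From progenitors to myeloid progenitors Tlr4 differed by −0.0067 without and 0.93 with Dox, neither called. With the slide as a block these steps were 0.98 and 1.52, also not called. With the additional array in that fit, the step with Dox was 1.46 and called. Ly96, the partner of TLR4 on the cell surface, differed with Dox in myeloid progenitors by less than 2-fold and was not called, with group means of 8.48 and 8.65. It was called as higher in myeloid progenitors than in progenitors both without Dox (1.01 ± 0.20) and with Dox (1.04 ± 0.20). Both changes barely passed the 2-fold threshold, and slide and stage nearly coincide in this step. On slide 3, the additional progenitor array was at 7.56 and the uninduced myeloid arrays at 8.41, 8.57 and 8.45.

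Cd14 varied more than any other member. Without Dox it was read at 6.29, 6.27 and 6.90 in HE, at 8.55, 9.20 and 8.31 in HE2, at 12.13 and 10.80 in progenitors and at 10.49, 11.24 and 10.74 in myeloid progenitors. It rose from HE to HE2 by 2.20 ± 0.55 or 4.60-fold (adjusted P = 0.0136) and again from HE2 to progenitors by 2.78 ± 0.61 or 6.85-fold (adjusted P = 0.0063). From there to myeloid progenitors the difference was −0.64, with an interval from −1.93 to 0.65. Slide and stage nearly coincide in this step, and its sign depended on the fit. With the slide as a block it was 2.19 (adjusted P = 0.154) and not called. The additional progenitor array, on the slide of the myeloid arrays, was read at 9.98. The first rise was close to the threshold, since it was not called with the replicate number as a block, which gave an unadjusted P of 0.00152, nor with an offset of 50 (1.85) or the deposited values (1.90), nor in any of the 6 fits without 1 array, with changes between 1.94 and 2.41. Within slides it was 2.60 on slide 1 and 1.41 on slide 2, and with the slide as a block it was 2.20 and called (adjusted P = 0.00147). The rise from HE2 to progenitors was 2.11 without uninduced progenitor array 1, which ended its call, as did leaving out uninduced HE2 array 1 or 3 (2.71 and 2.59).

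With Dox, Cd14 stayed low in HE2. The induced HE2 arrays were at 6.61, 6.92 and 5.63, below all uninduced HE2 arrays, and the change was −2.30 ± 0.55 or 4.93-fold (adjusted P = 0.0067). It was −2.27 within slide 1 and −2.03 within slide 2, and with the slide as a block −2.22 and called (adjusted P = 0.00102). Leaving out uninduced HE2 array 1 or 2 or induced HE2 array 1 or 3 ended the call, with changes between −2.41 and −1.92, and an offset of 50 or the deposited values gave −1.90 and −1.96, also not called. In HE the groups overlapped at their low level, with a difference of −0.14 (interval −1.29 to 1.01). The response in HE2 minus that in HE was −2.16 ± 0.78 (adjusted P = 0.297) and was not called.

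The induced progenitor arrays stood apart from each other, at 10.91 and 7.96, and the change of −2.03 ± 0.67 was not called (adjusted P = 0.0905). Without induced array 1 it was −3.51 and called, and without induced array 2 it was −0.56. Without uninduced array 1 it was −1.37, and with the slide as a block −0.68, neither called. The array at 7.96 lies on slide 3, where the additional uninduced progenitor array was read at 9.98. On slide 1, the difference between induced and uninduced progenitors was −1.22. In myeloid progenitors the induced arrays (9.43, 9.99 and 10.40) lay just below the uninduced ones, by −0.88 ± 0.55, which was not called. Along the induced stages, Cd14 differed by 0.038 from HE to HE2 and rose by 3.05 ± 0.61 from HE2 to progenitors (adjusted P = 0.00218), where the value without induced progenitor array 1 was 1.57 and not called. From progenitors to myeloid progenitors with Dox, Cd14 differed by 0.51, and with the slide as a block by 1.99, neither called. With Dox in HE2, fewer cells that express Cd14 and less Cd14 RNA per cell cannot be told apart in these bulk samples.

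Other monocyte and macrophage genes were read beside Cd14. Of 17 listed markers, 16 had a probe and 15 were tested, and the log2 intensities of the 16 summed to 123.6 to 130.3 on uninduced and 116.9 to 118.6 on induced HE2 arrays. With Dox in HE2, 2 of the 15 fell (Csf1r, the receptor for the macrophage growth factor, by 1.77, and Fcer1g by 2.96) and 1 rose (Mrc1, by 3.46, a scavenger receptor that endothelium also expresses). Over all tested genes, 2.05% fell and 5.17% rose there. Ctss and C1qc were not well above background on any induced HE2 array, and no marker was in this state in uninduced HE2. Both were dim in either group, however, with means of 5.34 uninduced and 5.18 induced for Ctss and 5.24 and 5.07 for C1qc. C1qc was not well above background in either HE group. In progenitors the sums were 136.7 to 138.9 uninduced and 129.7 to 132.8 induced. In HE they were 105.6 to 111.5 uninduced and 107.2 to 110.6 induced. These sums hide opposite changes, since 2 of the 15 rose and 1 fell with Dox in HE (4.70% of all genes up and 2.39% down). The means went from 6.81 to 8.85 for Tyrobp, from 10.60 to 12.29 for Mrc1 and from 9.19 to 7.66 for Fcer1g. Among markers of other cells in HE2 with Dox (5.17% of all genes up and 2.05% down), 2 of 6 tested endothelial and 3 of 6 erythroid genes rose with 0 falling. Of cardiac and smooth muscle genes 3 of 6 fell, of neutrophil granule genes 2 of 6 and of megakaryocyte genes 1 of 5, with 0 rising. Of 3 mast cell, basophil and eosinophil genes, 0 rose and 0 fell. The part of these cells in the Cd14 values was not tested.

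Among the receptors in endosomes, Tlr13, which binds bacterial ribosomal RNA, was the one called with Dox by the probes used. The uninduced HE2 arrays were at 7.67, 7.41 and 6.85 and the induced ones at 8.94, 8.30 and 9.20, with no overlap. Tlr13 rose by 1.51 ± 0.28 or 2.84-fold (adjusted P = 8.68e-04). The rise was 1.41 within slide 1 and 1.90 within slide 2, and leaving out any 1 array of the 2 groups gave 1.28 to 1.76, all called. With only these 2 groups in the fit it missed the P threshold. In HE the difference was 0.80 ± 0.28 (adjusted P = 0.0588) and in progenitors 0.73 ± 0.34 (adjusted P = 0.229), both with induced arrays above all uninduced ones and neither called. In myeloid progenitors it was 0.28 with an interval from −0.29 to 0.86. The response in HE2 minus that in HE was 0.71 ± 0.39 (adjusted P = 0.701) and was not called.

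Without Dox, the Tlr13 means were 8.17 in HE and 7.31 in HE2, 6.96 in progenitors, and 9.09 in the myeloid progenitors. The last step was called, as 2.13 ± 0.31 or 4.38-fold (adjusted P = 4.97e-05), and so was the step with Dox, as 1.68 ± 0.31 or 3.21-fold. Slide and stage nearly coincide in it, and with the slide as a block the change without Dox was 1.73 and not called. With the additional array in that fit it was 1.86 and called. On slide 3 itself, the additional progenitor array was at 7.18 and the uninduced myeloid arrays at 8.98, 9.52 and 8.78. The step with Dox was 1.55 with either block, called with the slide and not called with the scan date. Without induced progenitor array 1 it was also 1.55.

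The same step carries markers of several lineages. Over all tested genes, 7.00% rose and 6.93% fell in this step without Dox. Of the 15 tested monocyte and macrophage markers, 9 rose and 0 fell from progenitors to myeloid progenitors without Dox. The summed log2 intensity of the 16 with a probe lay between 163.5 and 177.0 against 136.7 to 138.9. All 6 erythroid and 4 of 5 megakaryocyte markers rose as well, while 2 of 6 neutrophil granule markers fell and 0 rose. Of 6 cardiac and smooth muscle markers 1 rose and 3 fell, and of 6 endothelial markers 0 rose and 1 fell. Of 3 mast cell, basophil and eosinophil markers, 1 rose and 0 fell. The part of these lineages in the rises of Tlr1 and Tlr13 was not tested.

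Tlr7, a receptor for single-stranded RNA, was read at 9.03, 8.54 and 8.47 in uninduced HE and at 9.18, 9.82 and 9.58 in induced HE. The difference of 0.85 ± 0.22 (adjusted P = 0.013) was under 2-fold and not called. The 2 probes for Tlr7 disagreed here, since the dimmer one differed by 2.4 ± 0.29 and would have been called. In HE2 the probe used differed by 0.65 with Dox and the other by 0.74. From HE to HE2 without Dox the probe used differed by 0.85 ± 0.22 (adjusted P = 0.0182) and the other by 2.26 ± 0.29. By the other probe, the response to Dox in HE2 minus that in HE was −1.66 ± 0.42, past the threshold for a call, against −0.19 ± 0.31 by the probe used. The response in myeloid progenitors minus that in HE was −1.74 ± 0.42 by the other probe, also past the threshold, against −0.63 by the probe used. The level of Tlr7 along the uninduced stages was 8.68, 9.53, 9.85 and 10.25, and the steps after HE2 were smaller, at 0.32 (adjusted P = 0.602) and 0.41 (adjusted P = 0.222).

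Tlr9, which senses unmethylated CpG DNA, was the flattest member. Its 8 group means spanned 0.42, none of its tests was called, and its differences with Dox were 0.15 in HE (interval −0.50 to 0.80), 0.074 in HE2 (−0.58 to 0.73), −0.090 in progenitors (−0.89 to 0.71) and −0.10 in the myeloid progenitors (−0.76 to 0.55). Tlr3, which senses double-stranded RNA and does not use MyD88, was near background. It was not well above it on any array of uninduced HE2 or of progenitors, while it was on all 3 arrays of induced HE2, at 6.11, 6.31 and 5.58. This was at least 1.86-fold higher with Dox (adjusted P = 0.0403) and not called. In HE the groups overlapped, at 5.54 to 6.51 without and 5.77 to 6.64 with Dox.

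Myd88, the adaptor, stood higher at later stages by less than 2-fold a step. Its uninduced arrays were at 10.25, 10.46 and 10.46 in HE, at 11.08, 11.11 and 11.25 in HE2, at 11.98 and 11.55 in progenitors and at 11.91, 12.33 and 12.12 in myeloid progenitors. From HE to HE2 the groups were apart by 0.76 ± 0.15 (adjusted P = 0.0031), and from HE2 to progenitors by 0.62 ± 0.17 (adjusted P = 0.0283), both less than 2-fold and not called. With Dox the same steps were 0.47 (adjusted P = 0.0837) and 0.33 (adjusted P = 0.228), and that to myeloid progenitors was 0.71 (adjusted P = 0.00711). The 95% interval of the difference in Myd88 with Dox ran from −0.25 to 0.39 in HE2 and from −0.18 to 0.46 in myeloid progenitors. In HE its difference was 0.36 ± 0.15 (adjusted P = 0.125).

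Counted over the 9 tested members, Dox gave 1 rise and 0 falls in HE, where 4.70% of all tested genes rose and 2.39% fell. In HE2 it gave 1 rise and 1 fall, against 5.17% and 2.05%. In progenitors limma called 0 members, with 3.03% of genes up and 0.704% down, and 2 members had an unadjusted P under 0.05. In myeloid progenitors it also called 0, with 5.13% up and 1.18% down, and again 2 had a P under 0.05. The median change of the members for HE, HE2, progenitors and myeloid progenitors in turn was 0.20, 0.074, −0.090 and 0.28, and the median over all tested genes lay between −0.044 and −0.0077. Counts of 0 to 2 of 9 are too small to be set apart from these shares of all genes.

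**Figure D2:**
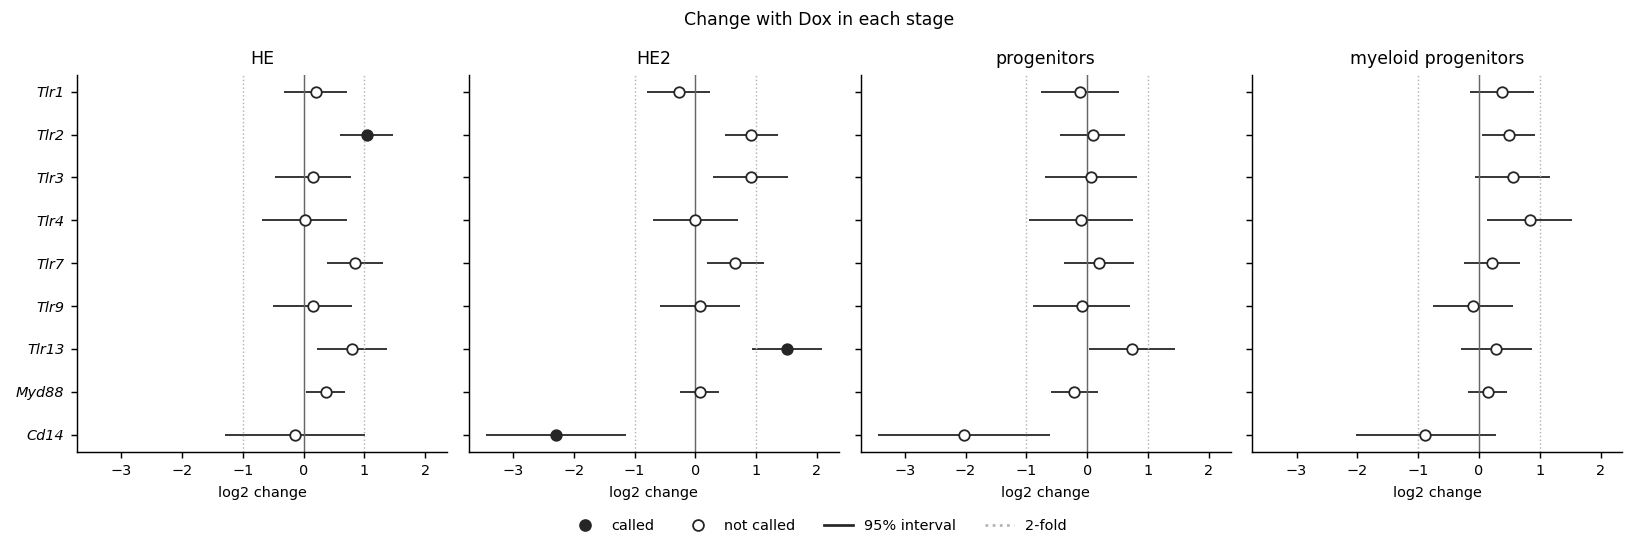
Log2 change with Dox (x axis, 95% interval) of the 9 tested members (y axis) in each stage, with filled points for called changes and dotted lines at 2-fold. Tlr2 in HE, Tlr13 and Cd14 in HE2 are the called points, at 1.04, 1.51 and −2.30.

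Between stages without Dox, 1 member rose from HE to HE2 (2.39% of genes up, 2.67% down), 1 from HE2 to progenitors (1.78% and 3.62%) and 2 from progenitors to myeloid progenitors (7.00% and 6.93%), and 0 fell. The rise from HE to HE2, that of Cd14, was not called with the replicate number as a block. With Dox the counts were 0 (1.62% up and 1.47% down, and 3 members with an unadjusted P under 0.05), 1 rise (2.02% and 5.34%) and 2 rises (4.86% and 2.51%). The progenitor step to myeloid progenitors shifted the median of all genes by −0.12 without Dox. By the probes used, no difference in response to Dox between stages was called for a member by limma. Such differences were called for 1.34% of genes between HE2 and HE, 0.645% between progenitors and HE2, 1.50% between myeloid progenitors and progenitors and 4.72% between myeloid progenitors and HE, and 1, 1, 0 and 0 members had an unadjusted P under 0.05.

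**Figure D3:**
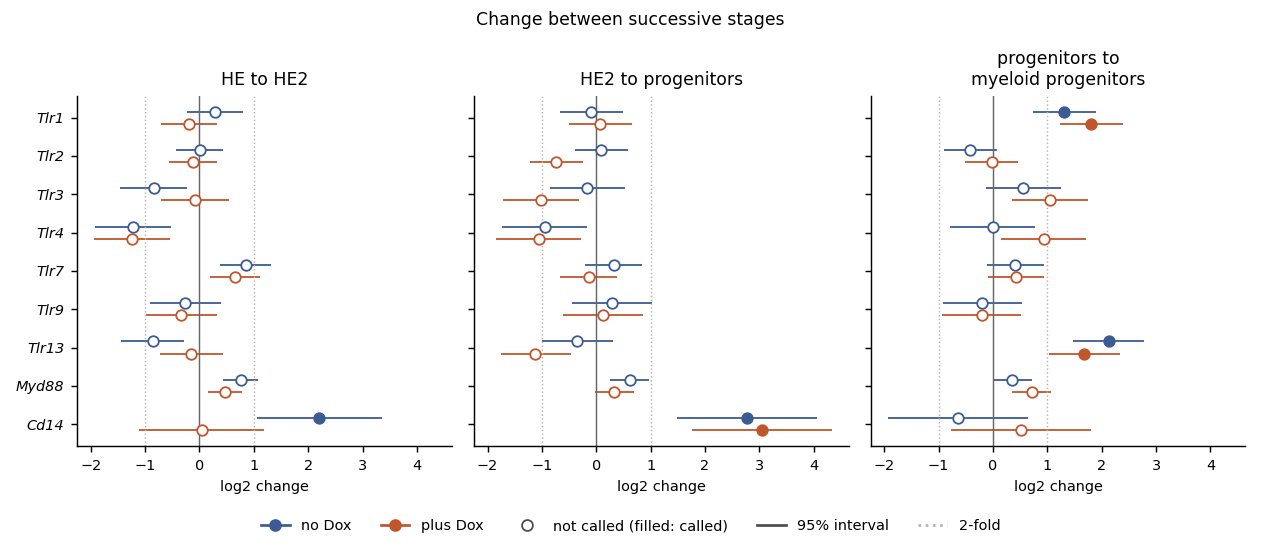
Log2 change (x axis, 95% interval) of the 9 tested members (y axis) between successive stages, without Dox in blue and with Dox in red, filled where called. For Cd14 the step from HE to HE2 is 2.20 without and 0.038 with Dox, while the step from HE2 to progenitors is 2.78 and 3.05.

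Other genes of the pathway were taken from a list of 65, of which 56 were tested. Of the TLRs outside the members, Tlr12 was tested and fell from progenitors to myeloid progenitors by 2.44 ± 0.30 without Dox and by 2.28 ± 0.30 with it. Tlr5, Tlr8 and Tlr11 had group means of at most 5.75 and were not tested. With Dox, 2 of the 56 rose and 1 fell in HE (4.70% of all genes up and 2.39% down), 3 rose and 6 fell in HE2 (5.17% and 2.05%), 1 rose and 6 fell in progenitors (3.03% and 0.704%), and 5 rose and 1 fell in myeloid progenitors (5.13% and 1.18%). Their median changes were −0.022, −0.088, −0.34 and 0.070, beside −0.0077, −0.027, −0.044 and −0.018 over all tested genes.

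Among co-receptors and chaperones, Cd36, a scavenger receptor that helps TLR2 with its ligands, rose with Dox by 1.20 ± 0.23 in HE and 1.29 ± 0.23 in myeloid progenitors, where 1 of 3 uninduced arrays had it well above background in either stage. In HE2 no uninduced array did, and it was at least 3.63-fold higher with Dox (adjusted P = 2.74e-05). In progenitors it was not well above background with or without Dox. Unc93b1, the chaperone of endosomal TLRs, fell by 1.87 ± 0.44 in progenitors, where its uninduced mean was 11.26 ± 0.09 and the induced arrays were spread around 9.39 with an SD of 1.4. Of 17 tested adaptors and kinases, 1 fell in HE and in HE2 (2.39% and 2.05% of all genes) and 0 rose (4.70% and 5.17%). In both this was Tirap, which bridges TLR2 and TLR4 to MyD88, from 11.11 ± 0.59 to 8.86 ± 0.40 in HE (−2.25 ± 0.36, adjusted P = 2.3e-04) and from 10.56 ± 0.39 to 9.06 ± 0.79 in HE2 (−1.49).

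Spi1, the gene for PU.1, fell with Dox from 8.76 ± 0.15 to 6.03 ± 1.03 in HE2 (−2.73 ± 0.37, adjusted P = 5.42e-05) and from 10.81 ± 0.33 to 8.59 ± 0.65 in progenitors (−2.23 ± 0.45). The chemokine Ccl3 (−2.31 ± 0.32) and Cebpb (−1.88 ± 0.43) also fell in HE2, and the chemokine Ccl4 (−1.88 ± 0.42) fell in progenitors. Of 13 tested targets of the pathway, 2 rose and 2 fell in HE2 (5.17% of all genes up and 2.05% down). In progenitors 1 rose and 2 fell (3.03% and 0.704%), and in myeloid progenitors 2 rose and 1 fell (5.13% and 1.18%). Cxcl1, a neutrophil chemokine, rose by 1.44 ± 0.27 in HE2 and 1.76 ± 0.27 in myeloid progenitors, and Acod1, which makes itaconate, by 1.21 ± 0.24 in HE2 and 1.80 ± 0.29 in progenitors. In myeloid progenitors, the NF-κB subunit Relb rose by 2.16 ± 0.28 and the inhibitor Socs1 by 1.44 ± 0.36, and Ccl3 fell by 1.4 ± 0.32. Irf8, a regulator of monocyte fate, rose by 1.52 ± 0.25 in HE.

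**Figure D4:**
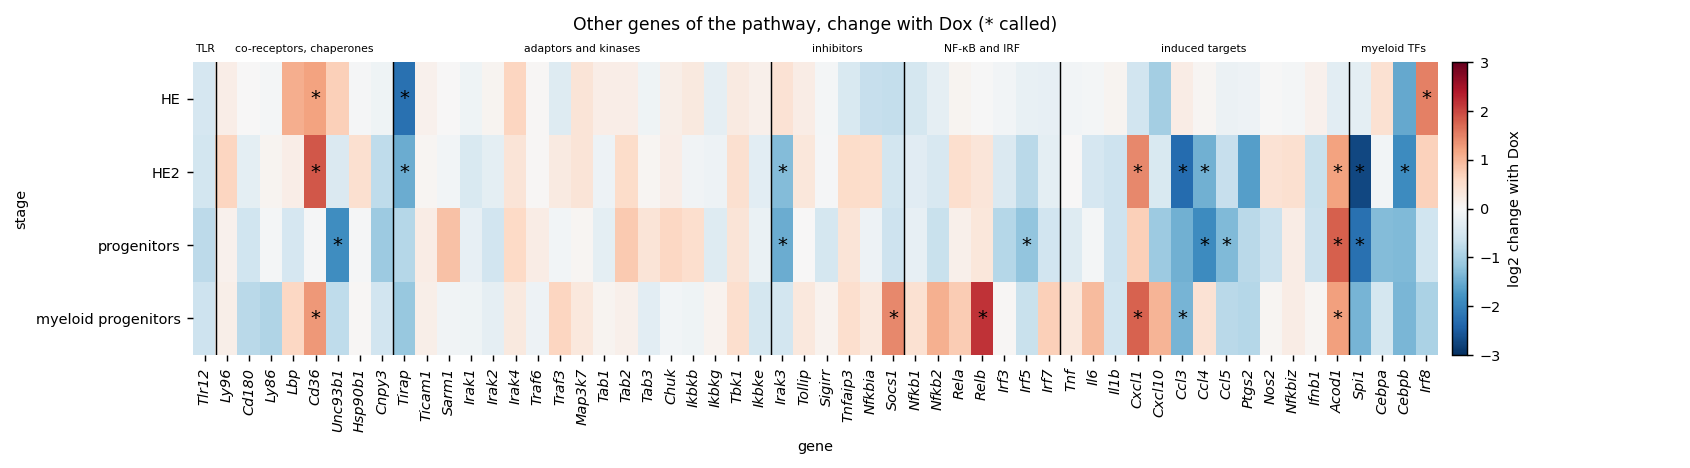
Log2 change with Dox (colour, red higher and blue lower) of the 56 tested genes of the pathway list (x axis, grouped by role) in the 4 stages (y axis), with called changes starred. Spi1, among the myeloid transcription factors on the right, has the darkest blue at −2.73 in HE2, and Relb the darkest red at 2.16 in myeloid progenitors.

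Along uninduced development, 8 of the 56 rose and 1 fell from HE to HE2 (2.39% of all genes up and 2.67% down), 11 rose and 2 fell from HE2 to progenitors (1.78% and 3.62%), and 11 rose and 6 fell from progenitors to myeloid progenitors (7.00% and 6.93%). The largest rises of the first step were Ccl3 (4.65 ± 0.32), Spi1 (3.29 ± 0.37) and Cebpb (3.26 ± 0.43), while Cxcl1 fell (−1.35 ± 0.27). In the second step these were Ccl3 (2.54 ± 0.36), Unc93b1 (2.29 ± 0.40) and Ccl5 (2.11 ± 0.30), with falls of Cxcl1 (−2.44 ± 0.31) and Relb (−1.26 ± 0.32). In the third step Ly86, a partner of the TLR-like receptor CD180, rose by 3.00 ± 0.28, Irf7 by 2.76 ± 0.43 and Irf8 by 2.22 ± 0.28, and Tlr12, Nfkbia (−2.29 ± 0.23) and Socs1 (−1.93 ± 0.41) fell.

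Over the 8 group means, the genes whose pattern was most like that of Cd14 included Selplg (Pearson's r = 0.997) and Arhgap4 (0.988). For Tlr13 they were Arfip1 (0.993), Sbds (0.989) and Gpr137b (0.987), and for Tlr4 Etv4 (0.987), Phldb1 (0.983) and Ccdc184 (0.983). The points share their arrays, so that these values only describe the likeness.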

How the data were processed

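RNA was hybridised to Agilent SurePrint G3 Mouse arrays in 1 colour. The authors deposited the median intensity of each spot and of its background from Feature Extraction (version 10.7.3.1 per the file headers, 10.7.1.1 per the labels), without normalization between arrays. They also deposited log2 values, used as an alternative. These had medians of 6.75 to 6.77 and minima of 5.65 to 5.67 per array against 4.03 in the values computed here, so that the offset behind them is not settled, while they were not centred by gene and correlated with the values here at 0.973 to 0.997 per array. The value columns were assigned to arrays by their sample labels. The correlation was 0.982 for arrays 2 and 3 of induced HE and 0.973 for those of induced HE2. It was 0.989 and 0.991 for arrays 2 and 3 of induced myeloid progenitors, and 0.997 for all other arrays. Whether the columns of arrays 2 and 3 in these groups match their intensity files was not tested.

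The intensities were background corrected on all spots (normexp, offset 16). Then 3671 control spots and spots marked as outliers (0.324% of the 59305 others) were left out, the 23 arrays underwent quantile normalization, and averaging the spots of each probe left 55681 probes. No spot was saturated. A RefSeq table of GRCm38.p6 named 26582 of them through their accession, and each gene was read by its probe with the highest mean. A linear model of group means was fitted in limma 3.58.1 (lmFit, then eBayes, under R 4.3.3), with 14 residual degrees of freedom shared by all groups, and P values were adjusted by the method of Benjamini and Hochberg. The threshold for a call (P of 0.001 and 2-fold) follows the study's methods, which do not say whether P was adjusted. It was used here unadjusted and applied to genes at 6.5 or more on at least 1 array. Where no array of a group had a probe well above background, the fold is given as a lower bound, with the dim level set to its own signal or, if higher, the lowest signal well above background. The number of arrays limits the precision.

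Members and lists were chosen with earlier results of these data known. Named genes were all members, the up to 3 largest rises and falls of the pathway list past the threshold per comparison, all other TLRs, the targeted gene and the sort markers, and for the 3 members with the widest range the 3 genes with the most similar group means, of which 1 is not reported here. By replicate number, uninduced HE and HE2 arrays deviated together from their group means (correlations across genes of 0.394, 0.797 and 0.61), and no other comparison with 3 pairs met this. The main fit did not use these pairs, so that its tests from HE to HE2 without Dox are unpaired. The replicate number entered only as a block among the alternatives. Array 3 of induced myeloid progenitors has a title naming it a biological replicate and a source name naming it a technical one, and was used as replicate 3. The additional uninduced progenitor array, whose labels differ in the same way, entered the normalization only. The fit was tested on simulated data.

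The alternatives covered the deposited values, the offset (50), raw signals without background correction, scaling to the 75th percentile, no filter or one on signals well above background on 2 arrays, the mean of a gene's probes, an adjusted P of 0.05, slide, scan date or replicate number as a block, only the groups compared, the additional array, and each array left out. The additional array together with the slide block was added after the data were seen.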

Additional observations from a re-analysis of the deposited data

Results flagged for a closer look

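Among the 56 tested genes of the pathway list, 12 gave 16 differences between stages in the response to Dox, on the log2 scale and tested as interactions in limma. Such differences were called for 1.34% of all genes for HE2 minus HE, 0.645% for progenitors minus HE2, 1.50% for myeloid progenitors minus progenitors and 4.72% for myeloid progenitors minus HE. For HE2 minus HE, the response differed by −2.52 for Ccl3 (adjusted P = 0.0118), −2.44 for Spi1 (0.0297) and −1.71 for Irak3 (0.056), and by 2.01 for Cxcl1 (0.0181), 1.52 for Acod1 (0.0362) and 1.22 for Nfkbia (0.0584). For progenitors minus HE2 the fitted value was −1.89 for Cd36 (0.0483), which is not a measured size, since Cd36 was well above background only in induced HE2 among these 4 groups. For myeloid progenitors minus progenitors it differed by 2.31 for Ccl4 (0.0437), 2.11 for Cxcl10 (0.0437) and 1.82 for Relb (0.0538). For myeloid progenitors minus HE it differed by 2.32 for Cxcl1 (adjusted P = 9.44e-04), 2.17 for Relb (0.00211), 2.16 for Socs1 (0.0137), 2.04 for Cxcl10 (0.00737), 1.55 for Acod1 (0.00692) and −2.48 for Irf8 (2.73e-04). The myeloid arrays share slide 3, and the time with Dox may differ between myeloid progenitors and the other stages. The part of either in the comparisons with other stages was not tested.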

How the results depend on the processing

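Of the 10 called changes of members, none reversed its direction in 194 recomputed values, and 151 of these kept the call. Among 116 results without a call, 36 of 2438 recomputed values were called, and 126 of all 2632 recomputed values changed sign without a call. The number of called members moved as follows, with the number in the report given last in each sentence. For Dox in HE it was 0 with scaling to the 75th percentile, the slide block, the additional array with the slide block or only the groups compared, 2 with the mean of a gene's probes, and 0 to 2 without 1 array, against 1. For Dox in HE2 it was 1 with an offset of 50, the deposited values or only the groups compared, and 1 to 3 without 1 array, against 2. For Dox in progenitors it was 1 with the replicate block and 0 to 1 without 1 array, against 0, and in myeloid progenitors 0 throughout. From HE to HE2 without Dox it was 0 with the additional array or the replicate block, 2 with an adjusted P of 0.05, the mean of probes, only the groups compared, the scan date block, the slide block or the additional array with the slide block, and 0 to 1 without 1 array, against 1. From HE2 to progenitors without Dox it was 0 with the replicate block and 0 to 1 without 1 array, against 1. From progenitors to myeloid progenitors without Dox it was 1 with the 75th percentile, the deposited values, an offset of 50 or only the groups compared, 0 with the scan date or slide block, and 1 to 2 without 1 array, against 2. With Dox, from HE to HE2 it was 1 with an adjusted P of 0.05, the deposited values, an offset of 50, the replicate, scan date or slide block or the additional array with the slide block, and 0 to 1 without 1 array, against 0. From HE2 to progenitors with Dox it was 2 with the replicate block or the additional array with the slide block, 3 with an adjusted P of 0.05, 0 with only the groups compared, and 0 to 2 without 1 array, against 1. From progenitors to myeloid progenitors with Dox it was 1 with the scan date block, 3 with no filter, the filter on signals well above background, an adjusted P of 0.05, only the groups compared or the additional array with the slide block, and 1 to 2 without 1 array, against 2. For the difference between HE2 and HE in the response to Dox it was 1 with only the groups compared or the scan date block, and between myeloid progenitors and HE 1 with the mean of probes, each against 0, and all 4 such differences gave 0 without 1 array. The cause of these moves was not tested.

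Scaling to the 75th percentile moved the median of all genes with Dox to −0.194 in progenitors and −0.15 in myeloid progenitors, and for the step to myeloid progenitors to −0.247 without and −0.187 with Dox. Beyond uninduced HE and HE2, where the numbers paired the arrays, the replicate block called Cd14 with Dox in progenitors (−2.03) and Tlr4 with Dox from HE to HE2 (−1.24) and from HE2 to progenitors (−1.48), and ended the call of Cd14 from HE2 to progenitors without Dox (2.59). Dim probes (Tlr1, Tlr3 and Tlr6) have bounds in several groups, progenitors rest on 2 arrays a group, and stage and slide largely coincide for myeloid progenitors.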

Other observations

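The additional uninduced progenitor array was read at 9.98 for Cd14, 1.49 below the mean of the 2 fitted arrays, and at 6.97 for Tlr4, 0.77 below it. For Tlr2, Tlr9 and Tlr1 it lay within 0.11 of that mean.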
